A study of Mus musculus with 6 samples.

Results

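The genes described here handle iron in the body and set the level of hepcidin, the liver hormone of iron balance. They were the rows of the deposited table whose symbol was *Hamp*, *Hamp2*, *Hfe2*, *Tfr2*, *Tfrc*, *Trf*, *Fth1*, *Ftl1*, *Slc40a1* or *Bmp6*, and all 10 were found among 25230 genes. Transcripts were counted in 3 glycogen-stacked lesions, labelled as small tumours, and in 3 regions of normal adjacent liver. All came from male C57BL/6 mice given diethylnitrosamine (DEN), which causes liver tumours, by injection into the peritoneum at the age of 14 days, in a dose of 25 mg/kg, with a time label of 7 months. Both groups therefore carry the carcinogen, and no untreated liver was analysed here. Regions were cut from formalin-fixed, paraffin-embedded sections. The labels do not tie regions to mice, so p-values measure only the spread between these samples. They are too small if regions of the same group share an animal. They may be too large if a lesion and a normal region share one, since the test was unpaired.

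Hepcidin is secreted by hepatocytes and binds ferroportin (*Slc40a1*), the only known cellular iron exporter of mammals, which is then degraded, so that less iron leaves macrophages, hepatocytes and the gut. Its gene is switched on by BMP6 and BMP2 from the liver's sinusoidal endothelium, acting through hemojuvelin (*Hfe2*, now *Hjv*) and SMAD factors, and by interleukin-6 through STAT3. Transferrin (*Trf*) carries iron in plasma, the transferrin receptors *Tfrc* and *Tfr2* take it up or sense it, and ferritin, built of *Fth1* and *Ftl1* chains, stores it.

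The mouse has 2 hepcidin genes, *Hamp* and *Hamp2*, which lie near each other on chromosome 7. Their upstream sequences are shown because both genes fell in the lesions, while the copies differ at a known control element. The 250 bases before each RefSeq start (GRCm38.p6) are given 5′ to 3′ on the minus strand, chr7:30944030-30944279 for *Hamp* and chr7:30924182-30924431 for *Hamp2*. Capitals mark the letters GGCGCC, the core of the BMP-responsive element, or the letters aligned to it in *Hamp2*, and then the STAT-type letters TTCNNNGAA.
Hamp: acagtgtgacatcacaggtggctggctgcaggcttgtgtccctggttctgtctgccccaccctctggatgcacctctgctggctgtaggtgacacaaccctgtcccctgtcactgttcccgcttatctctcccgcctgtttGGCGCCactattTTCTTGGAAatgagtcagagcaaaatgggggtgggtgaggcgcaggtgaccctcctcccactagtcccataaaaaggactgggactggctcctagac
Hamp2: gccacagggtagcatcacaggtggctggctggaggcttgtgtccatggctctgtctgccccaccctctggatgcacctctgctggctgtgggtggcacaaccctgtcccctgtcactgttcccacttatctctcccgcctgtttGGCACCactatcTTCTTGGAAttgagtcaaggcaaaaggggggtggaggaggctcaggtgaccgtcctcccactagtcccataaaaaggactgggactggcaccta
Over 247 aligned bases, 227 (91.9%) were identical, with 0 internal gaps. In *Hamp* the letters GGCGCC began 109 bases before the start, and TTCTTGGAA began 97 bases before it. In *Hamp2* the second set was the same, 94 bases before the start, and the first held 1 substitution, G4A, counted from 1 at the 5′ end of its 6 letters. Both motifs read the same on either strand, and the 2 searches do not overlap in *Hamp*. Of 27025 genes in the RefSeq promoter table, 10.8% held GGCGCC within 250 bases before some start, 8.13% held TTCNNNGAA and 0.44% had a start with both. Among the members with a promoter entry, GGCGCC was also found 89 bases before 1 of the 2 *Tfrc* starts. The table had no entry for *Hfe2*, *Trf* and *Slc40a1*.

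The libraries held 6352898 to 6542997 counts in the normal regions and 7294716 to 7412833 in the lesions. Lesion 3 stood apart from lesions 1 and 2. The chi-square between their counts was 11.2 per gene against lesion 1 or 2 and 1.57 between lesions 1 and 2. Each member is therefore given with and without lesion 3. Normal regions 2 and 3 were also close, at 1.37, while normal 1 was at 3.15 and 3.38 against them. The labels do not say whether close libraries are independent. Fits without lesion 3 rest on the close pair of lesions, so their smaller p-values are no stronger evidence. Hepatocyte markers led the tissue, with a summed level from 67318 to 71843 CPM, reads scaled to a common library size, in the normal regions and from 116237 to 139526 CPM in the lesions. Of the 11 hepatocyte markers tested, 3 rose, *Alb* the most abundant of them, and 5 fell. Summed cholangiocyte markers lay between 47.7 and 49.7 CPM in the normal regions and between 156.4 and 200.2 CPM in the lesions, led by *Spp1*, with *Krt19* and *Krt7* at 1.28 CPM or less in every library. Stellate cell markers were at 371 to 378 and 392.8 to 458 CPM, and leukocyte markers at 44.6 to 46.5 and 34.2 to 37 CPM. In dissected tissue, fewer cells of a type and less RNA per cell cannot be told apart.

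Of the 10 genes, 2 rose (*Hfe2* and *Trf*), 4 fell (*Hamp*, *Hamp2*, *Slc40a1* and *Tfr2*) and 4 did not pass the test (*Bmp6*, *Tfrc*, *Fth1* and *Ftl1*). All 10 passed the filter on low counts. Other annotated genes overlap *Trf*, *Bmp6* and *Ftl1*, and reads may be shared with them. The test was edgeR's quasi-likelihood test at a Benjamini-Hochberg adjusted p under 0.05 over 12506 genes. It called 37.1% of all tested genes, 18.7% higher and 18.4% lower, so that many calls are the rule in these samples. The groups did not overlap in CPM for the same 6 members, and for 48.2% of all tested genes. The authors' deposited table also puts 6 of the 10 at an adjusted p under 0.05, at log2 changes within 0.01 of those below. The median change of the members was -0.01 on the log2 scale, beside 0.003 for all tested genes.

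**Figure D1:**
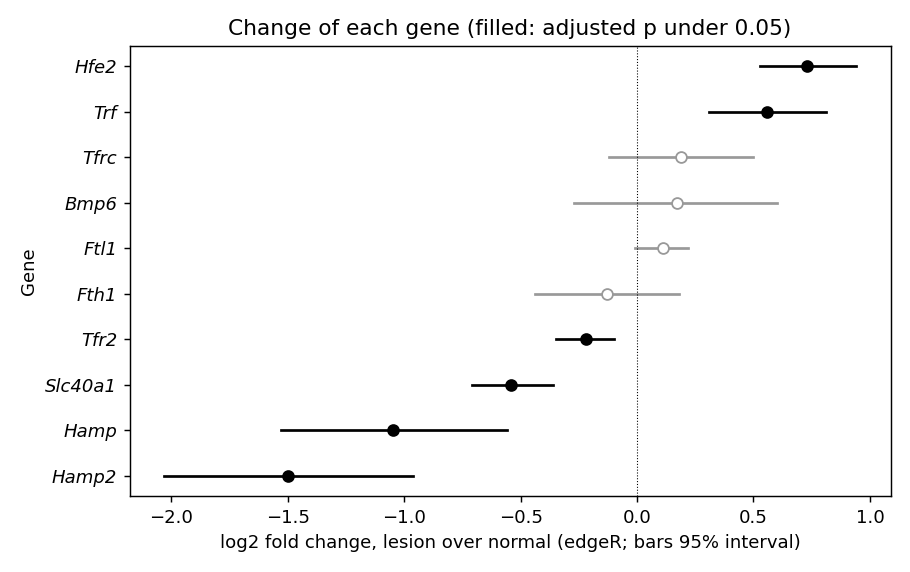
The log2 fold change of each gene, lesion over normal, from edgeR, with bars for its 95% interval. Filled points passed at an adjusted p under 0.05, and *Hamp2* (-1.50), *Hamp* (-1.05), *Slc40a1* (-0.54) and *Tfr2* (-0.22) lie below 0 while *Trf* (0.56) and *Hfe2* (0.73) lie above it.

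Hepcidin transcripts were lower in every lesion. *Hamp* (Entrez 84506, chromosome 7, 30942368 to 30944029) was at 209.2, 222.5 and 227.1 CPM in normal regions 1 to 3 and at 123.1, 117.9 and 77.4 CPM in lesions 1 to 3. No lesion reached a normal region, and lesion 3 was the lowest. The mean went from 219.6 ± 9.29 to 106.1 ± 25 CPM (SD, n = 3 each), a log2 change of -1.05 (SE 0.188, edgeR adjusted p = 0.0107). Without lesion 3 it was -0.87 (edgeR adjusted p = 1.2e-21).

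*Hamp2* (Entrez 66438, chromosome 7, 30922372 to 30924181) encodes a close relative of hepcidin. It was at 6.2, 6.31 and 8.14 CPM in the normal regions and 2.56, 2.94 and 1.76 CPM in the lesions. As for *Hamp*, normal 3 was the highest library and lesion 3 the lowest. Its log2 change was -1.50 (SE 0.257, edgeR adjusted p = 0.000124), and -1.32 without lesion 3 (edgeR adjusted p = 3.49e-05). These values rest on 41, 43 and 56 counts in the normal regions and 18, 21 and 12 in the lesions.

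The copies are alike enough to share reads, so their split is uncertain. With both rows summed into 1 before the fit, the log2 change was -1.06 (SE 0.189, edgeR adjusted p = 0.0107). *Hamp2* made up 2.88%, 2.76% and 3.46% of the reads of both genes in the normal regions and 2.04%, 2.43% and 2.22% in the lesions. The Wilson 95% interval was 2.13% to 3.88% for normal 1 and 1.29% to 3.2% for lesion 1, so these overlap, and such intervals cover counting error only. The log2 ratio of *Hamp2* to *Hamp* counts was -5.01 ± 0.18 in the normal regions and -5.46 ± 0.13 in the lesions (SD, n = 3 each). An exact two-sided permutation test gave p = 0.1, the smallest that 3 against 3 allows, and 0.15 adjusted over the 3 ratios tested. A non-coding gene, Gm44662, is annotated over both hepcidin genes on the other strand, and reads of the strands may share a count.

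Upstream of hepcidin, *Hfe2* was higher, *Tfr2* was lower and *Bmp6* did not pass. *Bmp6* (Entrez 12161, chromosome 13, 38345716 to 38500314), the iron-responsive ligand, was at 7.41, 5.43 and 5.23 CPM in the normal regions and 6.55, 7.7 and 6 CPM in the lesions. The groups overlapped on 36 to 55 counts a library. The log2 change was 0.17 with a 95% interval of -0.27 to 0.60 (edgeR adjusted p = 0.56). Without lesion 3 it was 0.25 (edgeR adjusted p = 0.385).

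*Hfe2* (Entrez 69585, chromosome 3, 96525163 to 96529216) encodes hemojuvelin, the BMP coreceptor without which hepcidin is hardly made. It was at 33.1, 34.5 and 38.8 CPM in the normal regions and 54.8, 54.6 and 67.6 CPM in the lesions. Every lesion lay above every normal region, with lesion 3 highest. The log2 change was 0.73 (SE 0.0984, edgeR adjusted p = 8.05e-06), and 0.62 without lesion 3 (edgeR adjusted p = 1.52e-08). Hemojuvelin mRNA was thus higher in the same 3 lesions in which hepcidin mRNA was lower.

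*Tfr2* (Entrez 50765, chromosome 5, 137569822 to 137588081) encodes the hepatocyte's sensor of iron-loaded transferrin. It was at 354.3, 365.7 and 395.3 CPM in the normal regions and 308, 318.7 and 328.2 CPM in the lesions. The groups did not overlap, but the gap between normal 1 and lesion 3 was narrow beside the spread of the normal regions. Its log2 change of -0.22 (SE 0.0595, edgeR adjusted p = 0.00583) was the smallest of the members that passed. It lost its call without normal 3 (log2 -0.18, edgeR adjusted p = 0.0616) and stood at -0.25 without lesion 3.

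*Trf* (Entrez 22041, chromosome 9, 103208876 to 103230286), the plasma carrier, was the most abundant member. It was at 15771, 17812 and 17813 CPM in the normal regions and 23176, 23050 and 29482 CPM in the lesions. All lesions were above all normal regions. The log2 change was 0.56 (SE 0.105, edgeR adjusted p = 0.00476), and 0.43 without lesion 3 (edgeR adjusted p = 3.67e-14). *Alb*, another secreted product of hepatocytes, took 3.37% to 3.72% of counts in the normal regions and 7.25% to 8.84% in the lesions. Without the *Alb* and Rn45s rows the members had the same calls.

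*Tfrc* (Entrez 22042, chromosome 16, 32608896 to 32632794), the uptake receptor of most dividing cells, did not pass. It was at 25.1, 23.8 and 21.6 CPM in the normal regions and 22.5, 23.8 and 34.2 CPM in the lesions, where lesion 3 alone was above the normal range. The log2 change was 0.19 (95% interval -0.12 to 0.50, edgeR adjusted p = 0.326), and without lesion 3 it was -0.02. Within libraries, the log2 ratio of *Tfr2* to *Tfrc* counts was 3.98 ± 0.19 in the normal regions and 3.59 ± 0.29 in the lesions (SD, n = 3 each, exact permutation p = 0.1, adjusted p = 0.15).

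The ferritin genes did not pass. *Ftl1* (Entrez 14325, chromosome 7, 45457944 to 45459886), the light chain, was at 2091, 1943 and 2007 CPM in the normal regions and 2060, 2168 and 2280 CPM in the lesions. The groups overlapped, with a log2 change of 0.11 (95% interval -0.01 to 0.22, edgeR adjusted p = 0.134), and 0.07 without lesion 3 (edgeR adjusted p = 0.144). *Fth1* (Entrez 14319, chromosome 19, 9980600 to 9985111), the heavy chain that oxidises iron on entry, was at 1192, 1206 and 1214 CPM in the normal regions. It was at 991.5 and 973 CPM in lesions 1 and 2, below all normal regions, and at 1339 CPM in lesion 3, above them.

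The *Fth1* result thus turned on lesion 3. Its log2 change was -0.13 (95% interval -0.44 to 0.18, edgeR adjusted p = 0.484) over all libraries and -0.29 (SE 0.0389, edgeR adjusted p = 2.77e-09) without lesion 3. The log2 ratio of *Fth1* to *Ftl1* counts was -0.74 ± 0.06 in the normal regions and -0.99 ± 0.20 in the lesions (SD, n = 3 each, exact permutation p = 0.2, adjusted p = 0.2). Ferritin genes have processed copies in the genome, and reads from these may be counted with the parent genes.

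*Slc40a1* (Entrez 53945, chromosome 1, 45908070 to 45926532) encodes ferroportin, the exporter that hepcidin acts on. It was at 204.7, 200.8 and 196.3 CPM in the normal regions and 131.6, 122.4 and 160.8 CPM in the lesions. The lesions were all below the normal regions, and lesion 3 was the least reduced, unlike for *Hamp*. The mean went from 200.6 ± 4.19 to 138.3 ± 20.1 CPM (SD, n = 3 each), a log2 change of -0.54 (SE 0.083, edgeR adjusted p = 0.000106). Without lesion 3 it was -0.66 (edgeR adjusted p = 2.16e-16).

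Kupffer cells, the liver's resident macrophages, are rich in ferroportin, and their markers were lower too. All 12 of 12 tested Kupffer cell and macrophage markers fell, with log2 changes from -1.17 to -0.36 and a median of -0.58. Their summed level ran from 1012 to 1071 CPM in the normal regions and was 647.6, 643.9 and 692.5 CPM in lesions 1 to 3. The C-type lectin gene *Clec4f*, a defining marker of Kupffer cells, went from 127.3 ± 11.1 to 84.8 ± 14.1 CPM, a log2 change of -0.59 (edgeR adjusted p = 0.00153). The phosphatidylserine receptor gene *Timd4* fell by 1.17 and the complement receptor gene *Vsig4* by 1.13 on the log2 scale. The markers differed in lesion 3, where *Slc40a1* was least reduced. There *Timd4* (-1.42) and *Marco* (-1.40, log2 CPM minus the normal mean) were at their lowest. *Clec4f* (-0.34), *Cd5l* (-0.39), *Adgre1*, *Csf1r*, *C1qa*, *C1qb*, *C1qc* and *Folr2* were instead least reduced there, as *Slc40a1* was. *Vsig4* and *Cd68* were neither lowest nor least reduced in lesion 3. The call of *Cd68* was lost under 10 of the 21 alternatives. The call of *Clec4f* held under all 21. The part of Kupffer cells in the *Slc40a1* result was not tested.

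**Figure D2:**
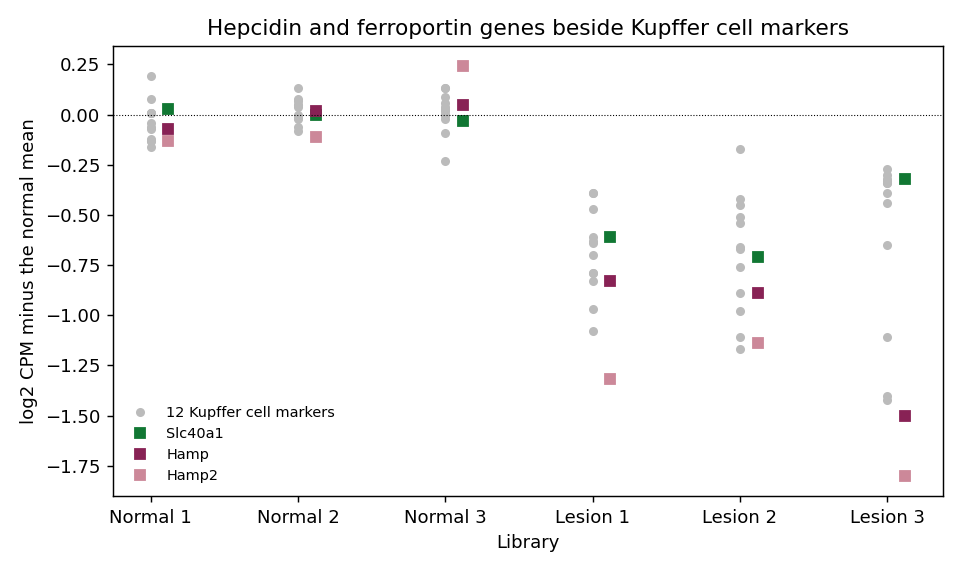
Log2 CPM minus the mean of the normal regions (vertical axis) in each library (horizontal axis) for *Slc40a1*, *Hamp* and *Hamp2* (squares) and for 12 Kupffer cell markers (grey points, 1 per gene). *Slc40a1* stood at -0.61, -0.71 and -0.32 in lesions 1 to 3, inside the range of the markers in each lesion, and *Hamp* at -0.83, -0.89 and -1.50.

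Levels of different genes were compared per length, as FPKM. In the normal regions the order from high to low was *Trf*, *Ftl1*, *Fth1*, *Hamp*, *Tfr2*, *Slc40a1*, *Hfe2*, *Hamp2*, *Tfrc* and *Bmp6*, from a mean of 7289 ± 510.1 FPKM for *Trf* to 1.99 ± 0.395 FPKM for *Bmp6* (SD, n = 3). The order was the same in the lesions. The only neighbours whose ranges overlapped in the normal regions were *Hfe2*, at 16.2 to 19 FPKM, and *Hamp2*, at 14 to 18.5 FPKM. In the lesions these no longer overlapped, at 26.7 to 33.3 FPKM and 3.99 to 6.65 FPKM, and *Hamp2* overlapped *Tfrc*, at 4.33 to 6.61 FPKM. *Hamp* was the fourth of the 10 in both groups, at 536.6 ± 23.2 and 258.9 ± 60.4 FPKM.

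**Figure D3:**
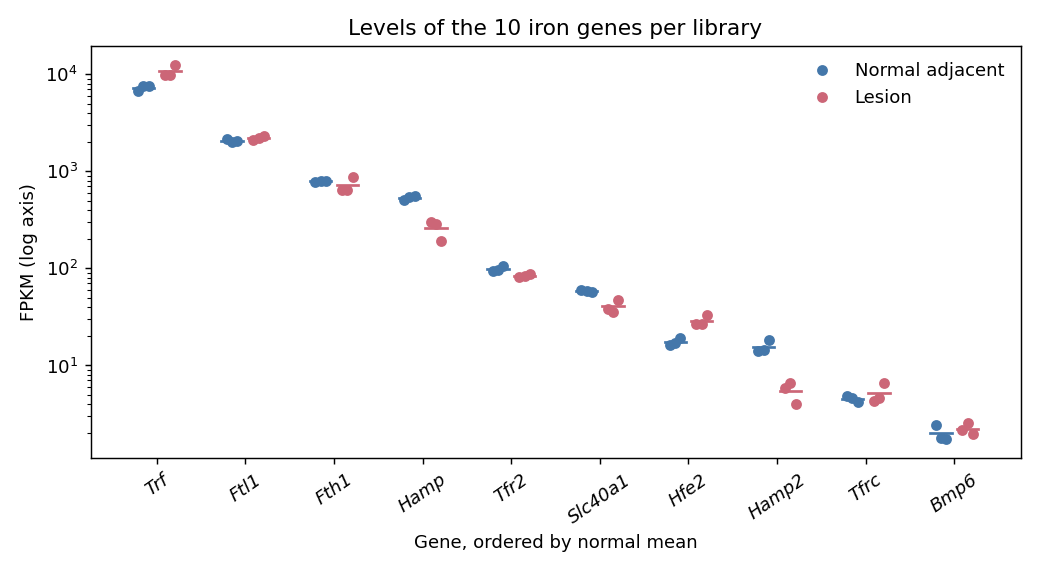
FPKM of the 10 genes (vertical log axis) in each library, with genes on the horizontal axis ordered by their mean in the normal regions. Points are libraries (blue normal, red lesion) and bars are group means. *Trf*, *Ftl1*, *Fth1* and *Hamp* lie above 100 FPKM in every library.

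Nearest genes were sought by distance over the 6 libraries in log2 CPM from the normal mean. Only tested protein-coding genes were searched, without predicted genes, clone names and pseudogenes. The 3 nearest to *Hamp* were *Marco*, a Kupffer cell scavenger receptor (distance 0.201), *Ttc39b* (0.216) and *Gda* (0.22). *Marco* stood at -0.79, -0.76 and -1.40 in lesions 1 to 3, where *Hamp* stood at -0.83, -0.89 and -1.50. Among the other Kupffer cell markers, only *Timd4* was also lowest in lesion 3, and most were least reduced there. The genes nearest to *Trf* were *Aspg* (0.069), *Aldoa* (0.089) and *Add1* (0.101). All of these distances rest on the same 6 libraries.

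The wider network of iron genes was covered by 8 lists with 120 tested genes. Of these 23 rose, 39 fell and 58 did not pass, so that 51.7% were called, beside 37.1% of all tested genes. Their median log2 change was -0.13. The lists were chosen with earlier results of these data known, so the higher share is no independent finding about iron genes.

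Genes of BMP signalling to hepcidin changed in both directions, with more lower than higher. Among 20 tested, 8 were lower, 4 were higher and 8 did not pass, at a median log2 change of -0.20. The type II receptor gene *Bmpr2* went from 100.1 ± 5.31 to 77.2 ± 6.17 CPM, a log2 change of -0.37 (edgeR adjusted p = 0.00059). *Bmp2*, the endothelial ligand that sets basal hepcidin, went from 25.9 ± 1.98 to 20.6 ± 3.97 CPM, a log2 change of -0.34 (edgeR adjusted p = 0.0483), with overlapping groups and a call lost under 11 of 21 alternatives. *Bmp4* rose by 1.19 and *Bmp7* fell by 1.13 on the log2 scale, both from under 5 CPM.

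*Id1*, a classic BMP target that rises with hepcidin when iron is given to mice, was at 1.81, 2.5 and 2.03 CPM in the normal regions and 10.4, 9.8 and 5.27 CPM in the lesions. It was higher in every lesion, 4.01-fold by the group means (edgeR adjusted p = 1.95e-05), and its log2 change was 2.24 without lesion 3. *Smad7* and *Atoh8*, also BMP targets in liver, were not higher. The inhibitor *Smad7* was at 27 ± 1.88 and 22.1 ± 5.41 CPM, a log2 change of -0.28 (edgeR adjusted p = 0.134), and *Atoh8* fell by 0.39 on the log2 scale (edgeR adjusted p = 0.0454), a call lost under 11 of 21 alternatives. *Gdf15*, a stress cytokine of the same ligand family, rose by 1.74 from 1.72 ± 0.146 CPM.

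Endothelial markers stand beside *Bmp6* and *Bmp2*, which sinusoidal endothelium makes. Of 12 tested markers of these cells, 2 rose, 2 fell and 8 did not pass (33.3% called, beside 37.1% of all tested genes). Their summed level was 880.3 to 905.5 CPM in the normal regions and 848.6 to 883.9 CPM in the lesions. The log2 changes of the called markers were 0.28 for *Stab1*, 0.96 for *Lyve1*, -0.55 for *Fcgr2b* and -0.42 for *Mrc1*. The call of *Stab1* was lost under 1 of 21 alternatives.

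Among other genes known to act on hepcidin, 2 of 15 rose, 6 fell and 7 did not pass, with a median log2 change of -0.10. *Tmprss6*, the protease that removes hemojuvelin from the cell surface, was at 325 ± 19.8 and 318.3 ± 15.1 CPM, a log2 change of -0.03 (edgeR adjusted p = 0.735). *Furin*, which cuts pro-hepcidin and hemojuvelin, rose by 0.28 on the log2 scale (edgeR adjusted p = 0.000572). Its call was lost on library size alone (log2 0.14, edgeR adjusted p = 0.0549). The haemochromatosis gene *Hfe* was at 26.7 ± 4.74 and 22 ± 2.92 CPM, a log2 change of -0.28 (edgeR adjusted p = 0.113), while its partner *B2m* fell by 0.43 on the log2 scale. *Fgl1*, a hepatokine that blocks BMP signalling to hepcidin, fell by 0.85 (edgeR adjusted p = 7.08e-05). *Epas1*, the hypoxia factor HIF-2α, rose from 352.2 ± 8.53 to 581 ± 11.5 CPM, a log2 change of 0.72 (edgeR adjusted p = 2.68e-09). The growth factor gene *Hgf* fell by 0.98 on the log2 scale. Hepatic stellate cells are a source of *Hgf*, and of their 10 tested markers 2 fell, *Lrat* by 1.11 and *Rgs5* by 0.85, while 3 rose, *Col1a1* by 2.03, *Col1a2* by 1.08 and *Col3a1* by 0.82, and 5 did not pass. Of these 5, *Dcn* had a log2 change of -0.98 (edgeR adjusted p = 0.0528) and passed under 10 of 21 alternatives. *Col1a1* lost its call under 4 of the alternatives. The part of stellate cells in the *Hgf* result was not tested.

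In the inflammatory arm, 5 of 11 tested genes fell and 2 rose, while 4 did not pass, at a median log2 change of -0.17. The shared receptor chain gene *Il6st* (gp130) went from 283.7 ± 5.86 to 194.6 ± 9.54 CPM, a log2 change of -0.54 (edgeR adjusted p = 5.53e-07), and *Lifr* fell by 0.55. *Il6ra* fell by 0.22 (edgeR adjusted p = 0.0214), a call lost under 8 of 21 alternatives. *Stat3*, the factor that binds the hepcidin promoter, was at 173.2 ± 4.01 and 157 ± 10.5 CPM, a log2 change of -0.14 (edgeR adjusted p = 0.0903). *Inhbb*, an activin chain that can raise hepcidin in inflammation, rose by 0.95 on the log2 scale.

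Iron and haem carriers changed in both directions. In import and export, 5 of 22 tested genes rose and 6 fell, while 11 did not pass, at a median log2 change of 0.03. Ceruloplasmin (*Cp*), the plasma oxidase that works with ferroportin, was at 1132, 1133 and 1054 CPM in the normal regions and 1838, 1749 and 2135 CPM in the lesions (log2 0.79, SE 0.0672, edgeR adjusted p = 5.84e-08). *Slc39a14*, which takes up iron not bound to transferrin, rose from 180.1 ± 9.17 to 238.6 ± 18.9 CPM, a log2 change of 0.41 (edgeR adjusted p = 8.53e-05). The endosomal haem transporter gene *Slc48a1* rose from 41.1 ± 4.46 to 110.7 ± 13 CPM, a log2 change of 1.43 (edgeR adjusted p = 2.2e-09). The divalent metal transporter gene *Slc11a2* was at 37.8 ± 3.1 and 42.3 ± 4.73 CPM, a log2 change of 0.16 (edgeR adjusted p = 0.217). *Cd163*, the macrophage receptor for haemoglobin bound to haptoglobin, fell from 102.7 ± 6.07 to 51.4 ± 3.7 CPM, beside the 12 lower Kupffer cell markers. *Scara5*, a ferritin receptor, fell by 0.84 and *Lrp1*, the receptor for haem bound to hemopexin, by 0.36 on the log2 scale.

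Genes that sense and store iron inside cells had the highest share of calls among the lists, 75% beside 37.1% of all tested genes. Here 7 of 16 tested genes rose and 5 fell, while 4 did not pass, at a median log2 change of 0.12. Since the lists were chosen with earlier results known, this rank is no independent finding. *Ireb2* (iron regulatory protein 2), which binds iron-responsive elements in ferritin, ferroportin and *Tfrc* mRNA, was at 81.3, 85 and 83.5 CPM in the normal regions and 51, 47.7 and 56 CPM in the lesions (log2 -0.69, SE 0.0779, edgeR adjusted p = 8.23e-07). *Aco1* (iron regulatory protein 1) fell by 0.24 (edgeR adjusted p = 0.0124), with overlapping groups and a call lost under 8 of 21 alternatives. *Fbxl5*, which targets *Ireb2* protein for degradation, was at 12.3 ± 1.41 and 12.5 ± 0.932 CPM (edgeR adjusted p = 0.929). *Ncoa4*, the receptor that delivers ferritin to lysosomes, fell by 0.24 (edgeR adjusted p = 0.00992), a call lost under 4 of 21 alternatives. The iron chaperone gene *Pcbp1*, which loads ferritin, rose by 0.41 on the log2 scale. *Bach1* encodes a haem-sensing repressor whose known targets include *Hmox1* and *Nqo1*. It rose by 0.74 on the log2 scale, while *Hmox1*, which breaks down haem, fell by 0.45. *Nqo1*, a redox enzyme, went the other way, from 5.17 ± 0.195 to 29 ± 11.6 CPM, with a log2 change of 2.48 (edgeR adjusted p = 0.0022). The part of *Bach1* in either result, and that of Kupffer cells in the *Hmox1* result, was not tested.

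Of 8 other transcripts described with an iron-responsive element, 1 rose (*Epas1*), 2 fell and 5 did not pass, with a median log2 change of 0.04. *Alas2*, the erythroid enzyme that opens haem synthesis, went from 111.9 ± 5.25 to 55.1 ± 4.91 CPM, a log2 change of -1.02 (edgeR adjusted p = 3e-09). Beside it, the erythroid marker list summed to between 5.6 and 9.66 CPM in all 6 libraries, and 2 of its genes could be tested, neither of which passed. In normal 1 these 2, *Slc4a1* and *Klf1*, held 4.23 and 2.57 of the 7.86 CPM. The haemoglobin genes of the list were thus barely counted, for a reason not tested, and the list says little about erythroid content. *Hao1* fell by 0.71 on the log2 scale.

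The last lists cover mitochondrial iron handling and iron-sulfur cluster assembly, where the share of called genes was close to the 37.1% of all tested genes or below it. In mitochondria 2 of 20 tested genes rose and 5 fell, while 13 did not pass (35% called), at a median log2 change of -0.16. *Abcb10*, which stabilises the mitochondrial iron importer, fell by 0.60, the cluster carrier genes *Nfu1* and *Isca1* fell by 0.68 and 0.47, and *Iba57* rose by 0.74 on the log2 scale. In the cytosol 1 of 10 rose and 2 fell, while 7 did not pass (30% called), at a median log2 change of -0.09. The iron-sulfur membrane protein genes *Cisd2* and *Cisd1* fell by 0.44 and 0.35, and the call of *Cisd1* was lost under 3 of 21 alternatives.

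**Figure D4:**
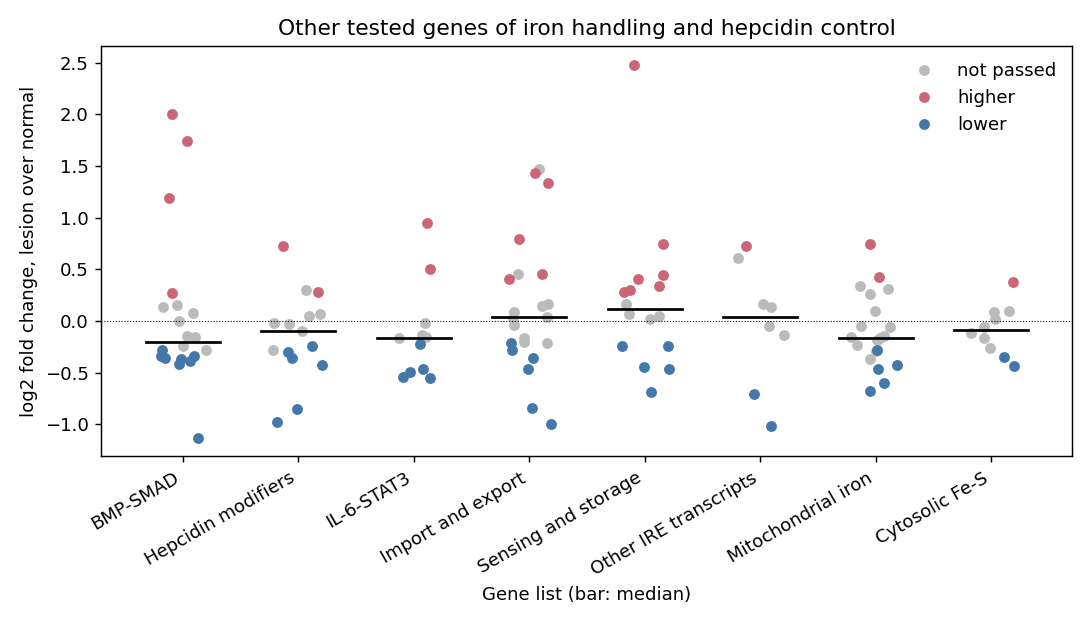
The log2 fold change, lesion over normal (vertical axis), of each tested gene in 8 lists of iron handling and hepcidin control (horizontal axis). Points are genes, coloured by their call, and bars are medians, which run from -0.20 for BMP-SMAD genes to 0.12 for sensing and storage genes.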

How the data were processed

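Ribosome-depleted total RNA from 6 dissected regions was sequenced after 15 cycles of PCR, per the labels' protocols. STAR 2.5.2b, DESeq2 1.24.0, CASAVA 1.8, cutadapt 1.18 and the build mm10 are named, without their roles, in the submitters' processing notes. How reads were counted, on which annotation and with which strand setting, is not given in the sources used here. For each Entrez gene the authors deposited read counts, as whole numbers, and FPKM, per the file headers. Their deposited comparison adds p-values, a mean signal over all libraries, a test score and a log2 change with its error. No molecular identifiers are named, so counts are of reads.

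Counts were tested with edgeR 4.0.16 (R 4.3.3): default expression filter, TMM scaling, robust quasi-likelihood fit with the group as the only term, two-sided, Benjamini-Hochberg adjustment over 12506 genes. Standard errors are the log2 change divided by the square root of F, and 95% intervals use the fit's degrees of freedom. The fit was tested on simulated data of 12351 genes, of which a far smaller share changed than was called here. There 10.8% of the calls were false, above the nominal level. Of 99 genes changed 1.5-fold, 50.5% were recovered, and of 95 changed 2-fold, 77.9%. These shares need not hold for the real data. CPM are on TMM-scaled library sizes. Coordinates, biotypes and promoters are RefSeq's for GRCm38.p6, and overlapping genes are from GENCODE.

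Same-numbered regions did not deviate together (r from -0.022 to 0.011), so numbers were not used as pairs. The alternatives were other scalings, filters and tools (DESeq2 1.42.0, limma 3.58.1), the replicate block and each library left out. Others were log2(FPKM + 1) and log2(FPKM + 0.1) for genes with a mean FPKM of at least 0.5. A further one was log2(FPKM + 1) for all genes with a count. The last was the closest libraries summed, which was chosen after seeing the data. The text names the members, up to 5 called genes of each list by p, 14 fixed upstream genes and leading cell markers. It also names the genes nearest to *Hamp* and *Trf*. *Furin*, *Atoh8* and *Nqo1* were added after their values were seen. Not all genes the rule gave are described. The members and lists were chosen with earlier results of these data known.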

Additional observations from a re-analysis of the deposited data

How the results depend on the processing

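The calls of *Hamp*, *Hamp2*, *Hfe2*, *Trf* and *Slc40a1* held at an adjusted p under 0.05 in every alternative fit, with log2 changes from -1.18 to -0.87, -1.66 to -1.32, 0.59 to 0.80, 0.42 to 0.65 and -0.68 to -0.45. *Tfr2* lost its call with the closest libraries summed (edgeR adjusted p = 0.115) and without normal 3. *Fth1* gained one without lesion 3. *Hamp* (adjusted p = 0.0107) misses a threshold of 0.01. The members called ran from 3 to 5 lower and stayed at 2 higher, the 3 with *Hamp* and *Hamp2* summed having 1 row fewer. On library size alone the median of all genes shifted to -0.136 (log2), with calls of 1474 higher and 3615 lower against 2340 and 2296, so changes are relative to the TMM scale. Over the single libraries left out, 1791 to 2798 genes were higher and 1800 to 2796 lower, and 27 to 42 list genes were lower. At an adjusted p under 0.01, 1548 genes were higher and 24 list genes lower. The latter were 22 with the closest libraries summed and 25 on log2(FPKM + 1) over all genes with a count, and the cause was not tested. Of 80 other called genes that the naming rule or the text gives, 65 kept their call at an adjusted p under 0.05 in every alternative fit. Changes of uncalled genes turned sign: *Ftl1* to -0.03, *Fbxl5* to -0.12 and *Slc4a1* to -0.12 on library size alone. With the closest libraries summed, *Tmprss6* and *Klf1* turned to 0.008 and *Reln* to 0.11. With 1 library left out, log2 changes ran from -0.02 to 0.31 for *Tfrc*, -0.07 to 0.08 for *Fbxl5*, -0.08 to 0.01 for *Tmprss6*, -0.22 to 0.15 for *Klf1*, -0.45 to 0.13 for *Reln* and -0.11 to 0.16 for *Slc4a1*. The fit with the replicate block called 2293 genes higher and 2233 lower, with 2 members higher and 4 lower, and the same-number check gave r from -0.022 to 0.011. The log2 ratio differences ranged from -0.52 to -0.35 for *Hamp2* to *Hamp*, -0.36 to -0.17 for *Fth1* to *Ftl1* and -0.48 to -0.23 for *Tfr2* to *Tfrc* over libraries left out. Among the 10 genes, *Hamp2* and *Bmp6* had the fewest counts.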
